A study of Mus musculus with 4 samples.

Results

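The genes described here were 8 of the 31053 features counted in single leukocytes of mouse fibrosarcomas, taken by symbol: the inhibitory receptor genes Pdcd1, Lag3, Havcr2, Tigit, Ctla4 and Cd160 (6 genes) and the factors Tox and Bhlhe40 (2 genes). Live CD45+ cells had been sorted by flow cytometry from untreated tumours harvested on day 11 after implantation and turned into 10x Genomics 3′ libraries. The groups were Raldh1/3 DKO tumours (Raldh1 and Raldh3, encoded by Aldh1a1 and Aldh1a3, are enzymes that make retinoic acid) and Cas9 Control tumours, and each had 2 libraries (called DKO 1 and DKO 2, control 1 and control 2). Cells of 2 tumours had been combined in each library, which makes 4 tumours a group, and p-values measure the spread between pools. Mouse age and strain and the origin of the tumour line were not given in the sources used here.

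T cells that meet antigen repeatedly carry several inhibitory receptors at once, and those receptors bind ligands on tumour, myeloid and stromal cells and dampen signalling through the T cell receptor and CD28. Several of the same genes are also induced briefly by activation, so their transcripts alone do not tell an exhausted cell from a recently activated one. TOX is a nuclear factor that maintains the exhausted state of CD8 T cells, and BHLHE40 is a transcription factor induced by activation that sustains cytokine production and metabolism in T cells and macrophages.

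All 8 genes lay on chromosomes of GRCm38 (mm10). Pdcd1 (PD-1) was at chr1:94038305-94052553 on the minus strand and Ctla4, on the same chromosome, at chr1:60887000-60915832 on the plus strand. Lag3 was at chr6:124904361-124911705 (minus) and Bhlhe40 at chr6:108660629-108666925 (plus). Havcr2 (TIM-3) was at chr11:46454935-46481255 (plus), Tigit at chr16:43648867-43664146 (minus), Cd160 at chr3:96798763-96829351 (minus) and Tox at chr4:6686353-6991557 (minus). On the opposite strand Cd160 overlapped Pdzk1, Tox overlapped Gm11802 and Bhlhe40 overlapped 0610040F04Rik, and whether the counting used strand is not given in the sources used here.

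Upstream sequence was available in RefSeq (GRCm38.p6) for 5 of the 8 genes (Pdcd1, Havcr2, Tigit, Ctla4 and Cd160). The 250 bases before the RefSeq start are shown for Ctla4, which was called higher in DKO in each T subset where any of the genes was, for Pdcd1, which was called in none, and for Havcr2, the gene with the smallest adjusted p in dendritic-like cells. They lie at chr1:60908775-60909024 (plus strand), chr1:94052554-94052803 (minus) and chr11:46454681-46454930 (plus). The Ctla4 window thus lies inside the gene span given above, whose annotated start is further upstream. Capitals mark, on either strand, GGAAA (the core of NFAT sites), TGANTCA (AP-1), CACGTG (an E-box bound by BHLHE40 and its relatives) and AGGTCA (the core site of retinoic acid and other nuclear receptors), and no matches of these motifs overlapped.
Ctla4: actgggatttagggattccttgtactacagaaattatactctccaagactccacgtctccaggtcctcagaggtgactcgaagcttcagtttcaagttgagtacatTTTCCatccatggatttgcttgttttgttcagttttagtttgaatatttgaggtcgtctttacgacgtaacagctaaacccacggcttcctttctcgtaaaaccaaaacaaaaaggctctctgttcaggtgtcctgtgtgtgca
Pdcd1: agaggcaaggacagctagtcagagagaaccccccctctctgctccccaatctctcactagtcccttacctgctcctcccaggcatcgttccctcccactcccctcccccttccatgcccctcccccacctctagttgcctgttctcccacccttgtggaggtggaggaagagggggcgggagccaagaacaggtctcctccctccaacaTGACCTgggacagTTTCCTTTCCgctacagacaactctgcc
Havcr2: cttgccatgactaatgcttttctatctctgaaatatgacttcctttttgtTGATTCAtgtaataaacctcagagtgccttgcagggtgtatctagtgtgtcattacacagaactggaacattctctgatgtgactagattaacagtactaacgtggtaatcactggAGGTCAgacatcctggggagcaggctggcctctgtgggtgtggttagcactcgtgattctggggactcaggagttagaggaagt
The Ctla4 window held 1 GGAAA, the Pdcd1 window 2 GGAAA and 1 AGGTCA, and the Havcr2 window 1 TGANTCA and 1 AGGTCA. None of the 3 windows held CACGTG. Over 32536 promoter windows of the same length, GGAAA was present in 55.7%, TGANTCA in 6.73%, CACGTG in 6.04% and AGGTCA in 14.04%. A match describes letters and shows no binding.

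Depth was 71381613 and 57458026 UMIs (unique molecular identifiers, each a counted transcript) in DKO and 80032966 and 74878771 in control, and 25880 of 30504 barcodes were kept. Pairs of libraries shared 20 to 38 barcodes, at most 0.626% of the smaller library. T-like cells numbered 1882 and 1360 in DKO and 1551 and 1133 in control, NK-like cells 388 and 353 against 354 and 369, dendritic-like cells 241 and 267 against 328 and 239, and monocyte/macrophage-like cells 3113 and 2190 against 4551 and 4932. The T cell gene Cd3e had a UMI in 85.3% of T-like cells and in 2.12% of monocyte/macrophage-like cells, while Ncr1 was seen in 65.2% of NK-like, Flt3 in 52.7% of dendritic-like and Csf1r in 93.9% of monocyte/macrophage-like cells. Transcripts of the targeted genes were too few in sorted leukocytes to check the knockout: Aldh1a3 had 10 and 24 UMIs in DKO and 28 and 9 in control, and Aldh1a1 had 0 and 1 in DKO and 1 and 0 in control.

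Where each gene was expressed. Levels are CPM, the UMIs of a gene scaled by all UMIs of the cells of that class in the same library. Ctla4, which competes with CD28 for its ligands, averaged 482 CPM in T-like cells over the 4 libraries, 184 in NK-like cells, 17.95 in dendritic-like cells and 3.40 in monocyte/macrophage-like cells. The libraries of T-like and NK-like cells did not overlap for it, nor did those of NK-like and dendritic-like cells. Lag3, a CD4-related receptor for MHC class II, had the same order, at 240 CPM in T-like, 60.5 in NK-like, 6.21 in dendritic-like and 3.16 in monocyte/macrophage-like cells, where the last pair overlapped. Lag3 was also high in the few plasmacytoid dendritic-like cells, at 196 and 230 CPM in DKO (15 and 28 cells) and 213 and 135 CPM in control (34 and 15 cells). With each cell thinned to 2000 UMIs it was seen in 40.0% and 28.6% of those cells in DKO and in 32.4% and 40.0% in control, and the groups overlapped. Without thinning the shares were 80.0% and 78.6% in DKO and 76.5% and 53.3% in control, at median depths of 8737 and 11132.5 UMIs in DKO and 7739 and 7379 in control, and the cells per library were too few for a test.

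Pdcd1, the receptor of PD-L1 and PD-L2, was highest in T-like cells, at 104 CPM against 8.32 in NK-like, 4.78 in dendritic-like and 0.334 in monocyte/macrophage-like cells, and its T-like and NK-like libraries did not overlap. Cd160, an immunoglobulin-family receptor for HVEM, followed at 99.9 CPM in T-like and 31.6 in NK-like cells, with 0.758 in dendritic-like and 0.338 in monocyte/macrophage-like cells. Tox averaged 36.7 CPM in T-like and 24.6 in NK-like cells, whose libraries overlapped, and had 1 UMI in all dendritic-like cells. Tigit, a receptor for PVR, was the most sparsely counted of the 8, with 254 UMIs in all T-like cells (6.98 CPM) and 71 in NK-like cells (8.09 CPM), overlapping, and 0 in dendritic-like cells.

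Havcr2 and Bhlhe40 were found in myeloid cells as well as lymphocytes. Havcr2, a receptor for galectin-9 and phosphatidylserine, averaged 90.7 CPM in T-like, 75.2 in dendritic-like and 69.3 in monocyte/macrophage-like cells with overlapping libraries, and 17.2 in NK-like cells, which lay below the other 3. Bhlhe40 averaged 568 CPM in NK-like, 468 in T-like and 414 in dendritic-like cells, each overlapping the next, and 171 in monocyte/macrophage-like cells.

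**Figure D1:**
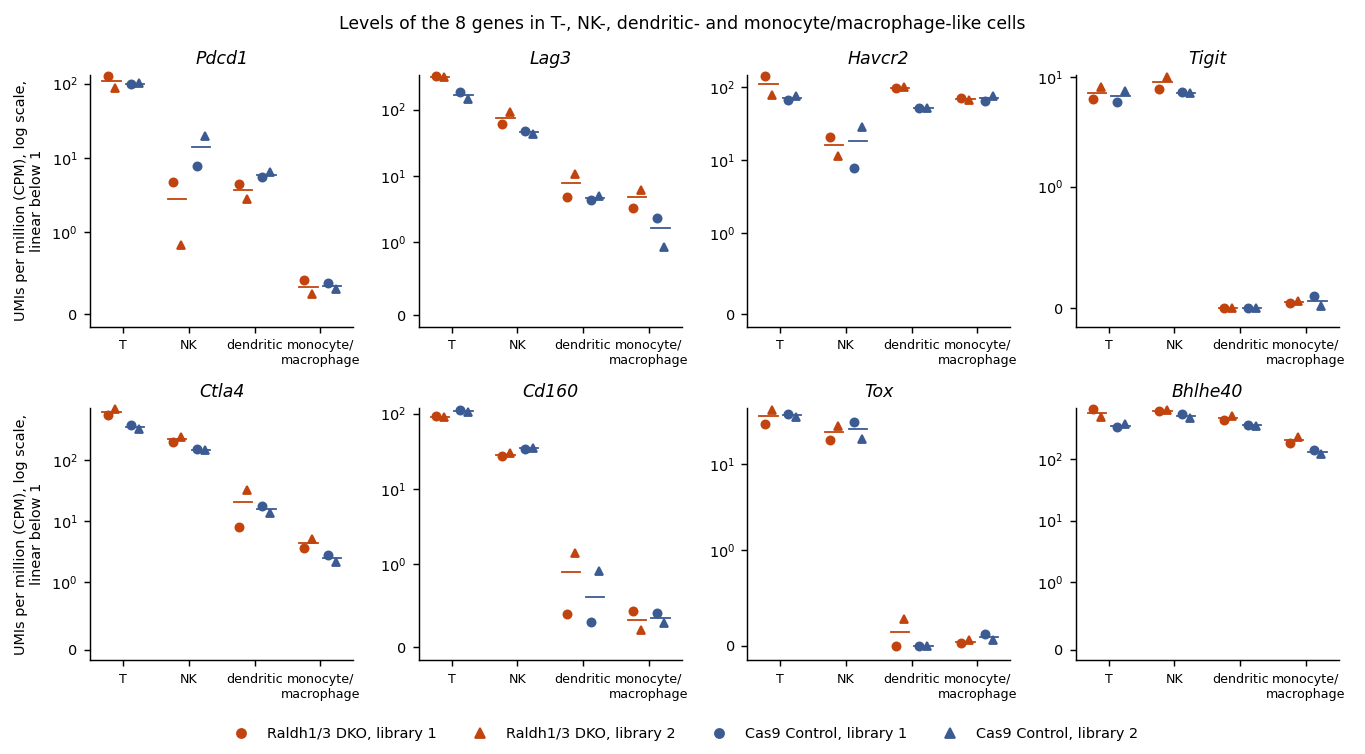
Levels of the 8 genes (CPM, log scale, linear below 1) in T-, NK-, dendritic- and monocyte/macrophage-like cells, with 1 point per library and a line at each group's mean (DKO left, control right). Pdcd1, Lag3, Ctla4 and Cd160 are highest in T-like cells, and Tox overlaps between T-like and NK-like cells. Havcr2 and Bhlhe40 are present in all 4 classes.

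The genes with the most similar pattern were found over 25 clusters of all cells by Pearson's r of log2(CPM + 1), among 9838 genes with at least 1000 UMIs, and r is a description since clusters share libraries and differ in depth. Pdcd1 was most like the T cell receptor complex genes Cd3g (r = 0.940), Cd3e (0.932) and Cd3d (0.932). Lag3 was most like Celsr1 (0.925), Lat (0.920) and Cd28 (0.884), and Ctla4 like Slain1 (0.953), Cd27 (0.944) and Tbx21 (0.942). Tigit was most like Cd28 (0.950), Cd27 (0.933) and Ctla4 itself (0.932). Cd160 followed Xcl1 (0.964), Ifitm10 (0.961) and Klrc1 (0.953), and Tox followed Lck (0.975), Cd247 (0.973) and Sh2d1a (0.958). Havcr2 had its highest values with the glycolysis genes Aldoa (0.796), Ldha (0.763) and Gpi1 (0.729), and Bhlhe40 was like Id2 (0.805) and Wipf1 (0.777). Between the 8 genes themselves r was highest for Tigit and Ctla4 (0.932), and for Havcr2 it was 0.272 or less with each of the other 7.

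T-like cells of DKO tumours had higher Ctla4, Lag3 and Bhlhe40 values than those of control tumours, and none of the 8 genes passed the test over the whole class. Lag3 had 322 and 310 CPM in DKO and 182 and 147 CPM in control. Ctla4 had 545 and 679 CPM in DKO and 376 and 328 CPM in control. Bhlhe40 had 665 and 490 CPM in DKO and 338 and 378 CPM in control. For these 3 genes both DKO libraries lay above both control libraries. Log2 changes (DKO over control, ± standard error) were 0.87 ± 0.13 for Lag3, 0.72 ± 0.14 for Ctla4 and 0.63 ± 0.17 for Bhlhe40, with adjusted p = 0.114, 0.117 and 0.221 by edgeR's quasi-likelihood test with Benjamini-Hochberg adjustment.

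The other 5 genes were closer between groups. Havcr2 had 142 and 77.6 CPM in DKO and 66.4 and 76.4 CPM in control (log2 0.56 ± 0.35, edgeR adjusted p = 0.525), with DKO 1 far above and DKO 2 just above the controls. Cd160 had 93.0 and 88.9 CPM in DKO and 113 and 105 CPM in control, both DKO libraries being lower (log2 -0.33 ± 0.10, edgeR adjusted p = 0.246). Pdcd1 had 127 and 88.4 CPM in DKO and 99.9 and 101 CPM in control, with DKO 1 above and DKO 2 below both controls (log2 0.034 ± 0.18). Tox had 29.2 and 43.3 CPM in DKO and 39.1 and 35.2 CPM in control (log2 -0.12 ± 0.16), again with the DKO libraries on either side. Tigit had 6.26 and 8.14 CPM in DKO and 5.97 and 7.55 CPM in control (log2 0.025 ± 0.24).

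Of all 11322 genes tested in T-like cells, 1 was called, or 0.00883%, and 0 of the 8 genes was, of which 4 had an unadjusted p under 0.05. DESeq2 called 2 of the 8, Lag3 (adjusted p = 3.2e-05) and Ctla4 (adjusted p = 0.00135). The libraries of 5 of the 8 did not overlap between groups, 4 higher and 1 lower in DKO, where 49.5% of genes with at least 50 UMIs did not overlap. With 1 library left out, edgeR called some of them. Lag3 was called without DKO 1 (adjusted p = 1.37e-05), without DKO 2 (1.28e-07) and without control 1 (0.0252), Ctla4 without DKO 1 (2.17e-05) and without DKO 2 (0.0115), and Bhlhe40 (1.35e-05) and Havcr2 (5.67e-09) without DKO 2, all by edgeR, where a lone library is assumed to vary like the other group's.

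The T-like class is a mixture, and its makeup differed between libraries. Clustering the T-like cells again, without the 8 genes among the variable genes, gave 12 subsets, of which 7 had at least 50 cells in each library. A CD8-like subset led by Ccl4 and Ccl3 (with Havcr2 itself among its 10 leading genes) made up 26.6% of the T-like cells of DKO 1 and 10.2% of DKO 2, against 9.61% and 10.2% in control. T cells that express Ly49 receptors (led by Klra7 and Klra1, with Cd3e in 83.1% of cells) made up 14.1% and 17.6% in DKO and 24.8% and 26.3% in control. The CD8-like subset led by Ccl4 was the highest of the 7 for Pdcd1 and Havcr2, and the Ly49-expressing cells were low for Pdcd1, Lag3 and Havcr2. With the subset levels weighted by 1 mix for all libraries, the log2 change was 0.55 for Lag3, 0.60 for Ctla4, 0.62 for Bhlhe40, 0.28 for Havcr2 and -0.18 for Pdcd1, with no test. It was 0.15 for Tigit and -0.083 for Tox. For Cd160 it was -0.22, at 78.1 and 96.7 CPM in DKO and 105 and 97.7 CPM in control, a smaller difference than the -0.33 without the weighting.

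Within subsets, Ctla4 was called in 4 of 7, Lag3 in 3 and Bhlhe40 in 1, and the other 5 genes were called in none. These 8 calls were all higher in DKO. They fell in Ly49-expressing, CD4-like, CD8-like (led by Ccl4) and cycling-like cells, and none was made in regulatory-like cells, naive or memory-like cells or the CD8-like subset led by Cd8b1. Called or not, Bhlhe40 was higher in both DKO libraries than in both control libraries in each of the 7 subsets. Libraries of the groups did not overlap for 5 of 7 genes in Ly49-expressing, 4 of 8 in CD4-like, 4 of 7 in CD8-like (Ccl4) and 3 of 4 in naive or memory-like cells, where 42.5%, 47.9%, 47.7% and 44.2% of all genes with at least 50 UMIs did not. The counts were 2 of 6 in regulatory-like, 3 of 7 in CD8-like (Cd8b1) and 5 of 7 in cycling-like cells, against 45.6%, 43.4% and 42.9% of all genes. Sums like these do not separate more cells with the transcript from more transcript per cell. With cells thinned to 2000 UMIs, the mean share with a UMI was higher in DKO for each of the 8 calls. For Ctla4 it was 21.4% in DKO and 13.9% in control in Ly49-expressing cells, and 63.5% and 51.7% in CD4-like cells. For Bhlhe40 in CD4-like cells it was 86.6% and 71.5%. Such a share also rises with transcript per cell, and how much each contributed was not tested.

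In Ly49-expressing T cells, Ctla4 had 178 and 175 CPM in DKO and 93.6 and 99.5 CPM in control. Both DKO libraries were well above both controls, and replicates within a group differed little (log2 0.82 ± 0.14, edgeR adjusted p = 0.00372). Lag3 had 64.8 and 52.0 CPM in DKO and 25.0 and 25.5 CPM in control (log2 1.15 ± 0.21, edgeR adjusted p = 0.00734), from 105 and 96 UMIs against 52 and 39. In this subset 2 of 7 genes tested were called against 0.197% of all 8629 genes, and both calls held with any library left out (edgeR adjusted p up to 0.0379). DESeq2 gave adjusted p = 0.139 for Ctla4 and 0.433 for Lag3. Cd160, which is highest here and in the CD8-like subset led by Ccl4, had 155 and 144 CPM in DKO and 176 and 152 CPM in control and was not called.

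In CD4-like cells (led by Serpinb1a, Cd4 and Furin, with a UMI of Cd4 in 90.5% of cells), 3 of 8 genes were called against 1.37% of all 8419 genes. Bhlhe40 had 1406 and 1195 CPM in DKO and 839 and 707 CPM in control (log2 0.69 ± 0.15, edgeR adjusted p = 0.0105). Ctla4 had 708 and 696 CPM in DKO and 434 and 416 CPM in control (log2 0.66 ± 0.14, edgeR adjusted p = 0.0109). Lag3 had 326 and 413 CPM in DKO and 250 and 189 CPM in control (log2 0.68 ± 0.15, edgeR adjusted p = 0.0154). For each of these 3 genes the DKO libraries were above both controls, while Pdcd1 went without a call at 138 and 161 CPM in DKO and 176 and 156 CPM in control. DESeq2 made the same 3 calls, and all 3 were lost without control 2 (edgeR adjusted p = 0.272 for Bhlhe40, 0.142 for Ctla4 and 0.347 for Lag3), Lag3 also without DKO 2 (0.140).

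In the CD8-like subset led by Ccl4, Ctla4 had 592 and 530 CPM in DKO and 317 and 302 CPM in control (log2 0.76 ± 0.15, edgeR adjusted p = 0.0072). It was the 1 gene of 7 tested that was called there, against 1.42% of all 7915 genes, and the groups did not overlap. Lag3 had 503 and 462 CPM in DKO and 371 and 326 CPM in control (log2 0.38 ± 0.15, edgeR adjusted p = 0.199), and Bhlhe40 613 and 493 CPM in DKO and 389 and 413 CPM in control (log2 0.37 ± 0.15, edgeR adjusted p = 0.211). Pdcd1, at 218 and 231 CPM in DKO and 267 and 196 CPM in control, and Cd160, at 166 and 267 CPM in DKO and 251 and 223 CPM in control, overlapped between groups. Ctla4 was also called by DESeq2, and lost its edgeR call without control 1 (adjusted p = 0.0587) and without control 2 (0.295).

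In cycling-like cells, Ctla4 had 388 and 395 CPM in DKO and 214 and 245 CPM in control (log2 0.72 ± 0.16), and Lag3 had 290 and 213 CPM in DKO and 147 and 132 CPM in control (log2 0.80 ± 0.18). Both had an edgeR adjusted p of 0.0409, 2 of 7 genes tested against 0.257% of all 8157, with DKO above control in each library. DESeq2 gave adjusted p = 0.179 for Ctla4 and 0.381 for Lag3, and by edgeR Ctla4 was lost without control 1 (0.201) or control 2 (0.0751) and Lag3 without DKO 1 (0.187), control 1 (0.0612) or control 2 (0.337). Havcr2 had 183 and 87.4 CPM in DKO and 89.0 and 115 CPM in control, and Cd160 had 93.7 and 97.0 CPM in DKO and 153 and 123 CPM in control, lower in both DKO libraries but not called (log2 -0.59 ± 0.17, edgeR adjusted p = 0.181).

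Regulatory-like cells, led by Foxp3, had the highest Ctla4 of the 7 subsets, 1730 and 2420 CPM in DKO and 1933 and 1424 CPM in control, with overlapping groups (log2 0.24 ± 0.17). Lag3 had 513 and 415 CPM in DKO and 335 and 262 CPM in control there (log2 0.55 ± 0.18, edgeR adjusted p = 0.222), and Bhlhe40 had 275 and 198 CPM in DKO and 102 and 149 CPM in control (log2 0.86 ± 0.22, edgeR adjusted p = 0.172). Neither was called, although DKO lay above control in each library, where 0.0152% of all 6574 genes were called. Naive or memory-like cells (led by Ccr7) were low in the receptors, with Lag3 at 7.16 and 8.24 CPM in DKO and 3.47 and 9.25 CPM in control, and 0 of 4 genes tested was called against 0.406% of all 6898. Bhlhe40 in naive or memory-like cells had 110 and 109 CPM in DKO and 47.4 and 89.4 CPM in control. In the CD8-like subset led by Cd8b1 and Gzmk, Lag3 had 122 and 109 CPM in DKO and 110 and 129 CPM in control (log2 -0.10 ± 0.22), and 0 of 7 genes was called against 0.0489% of all 6136. Bhlhe40 had 436 and 551 CPM in DKO and 372 and 328 CPM in control there. Ctla4 averaged 407 CPM in DKO and 318 CPM in control, and Pdcd1 109 and 135, each without overlap of the groups.

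**Figure D2:**
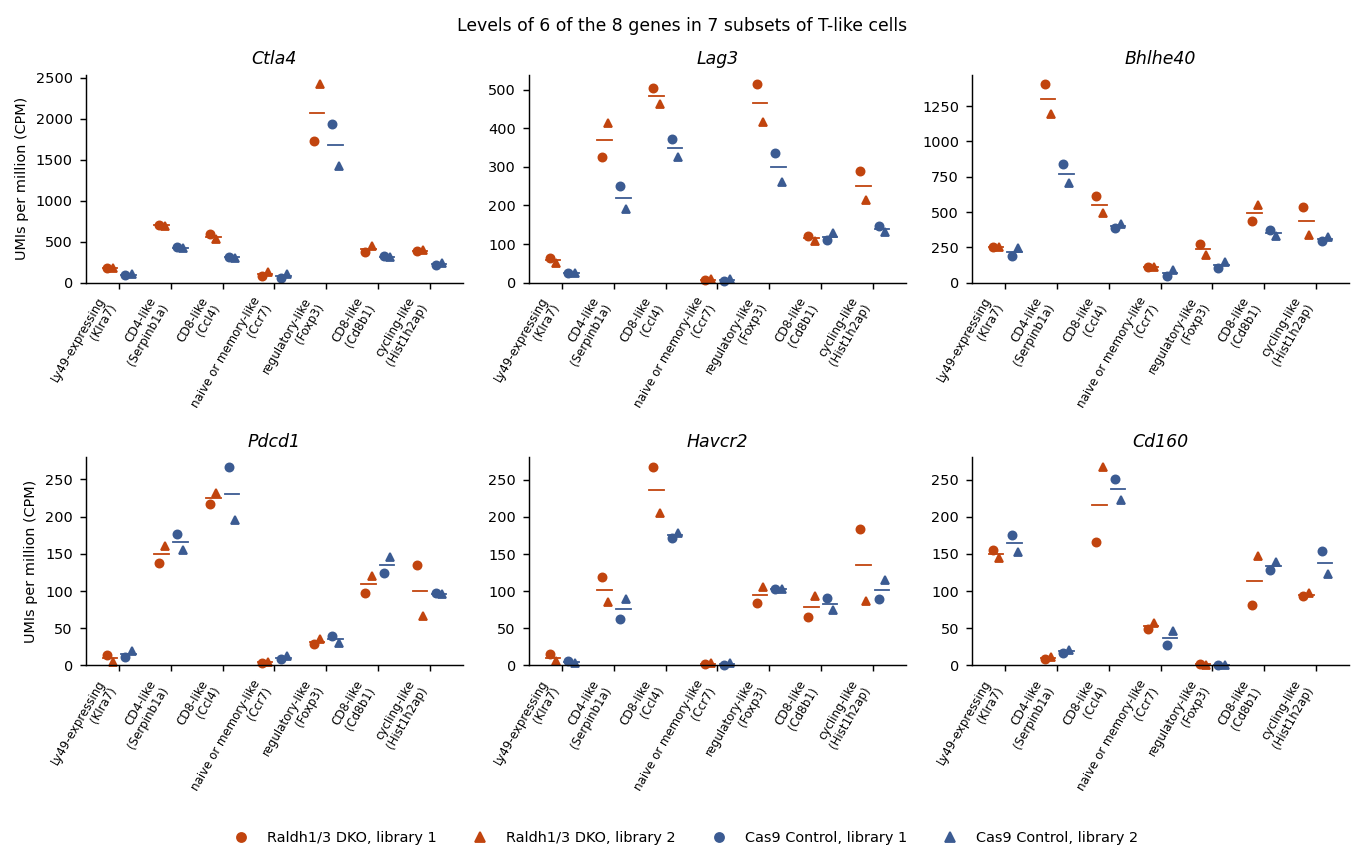
CPM of Ctla4, Lag3, Bhlhe40, Pdcd1, Havcr2 and Cd160 in 7 subsets of T-like cells, 1 point per library and a line at each group's mean, DKO left and control right. The DKO points of Ctla4 and Lag3 lie above the control points in Ly49-expressing, CD4-like, cycling-like and CD8-like (Ccl4) cells, while those of Pdcd1 overlap in the CD8-like (Ccl4) cells.

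T-like cells held transcripts of macrophage markers (the 12 listed markers summed to 1187 and 1154 CPM in DKO and 1244 and 1304 CPM in control). In Ly49-expressing cells they summed to 1892 and 1636 CPM in DKO and 1526 and 1681 CPM in control, and their part in the results was not tested. Leaving out a T subset of 156 cells with low UMI counts and macrophage genes among its leading genes, an alternative added after the data were seen, left the number of called genes in T-like cells at 0.

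**Figure D3:**
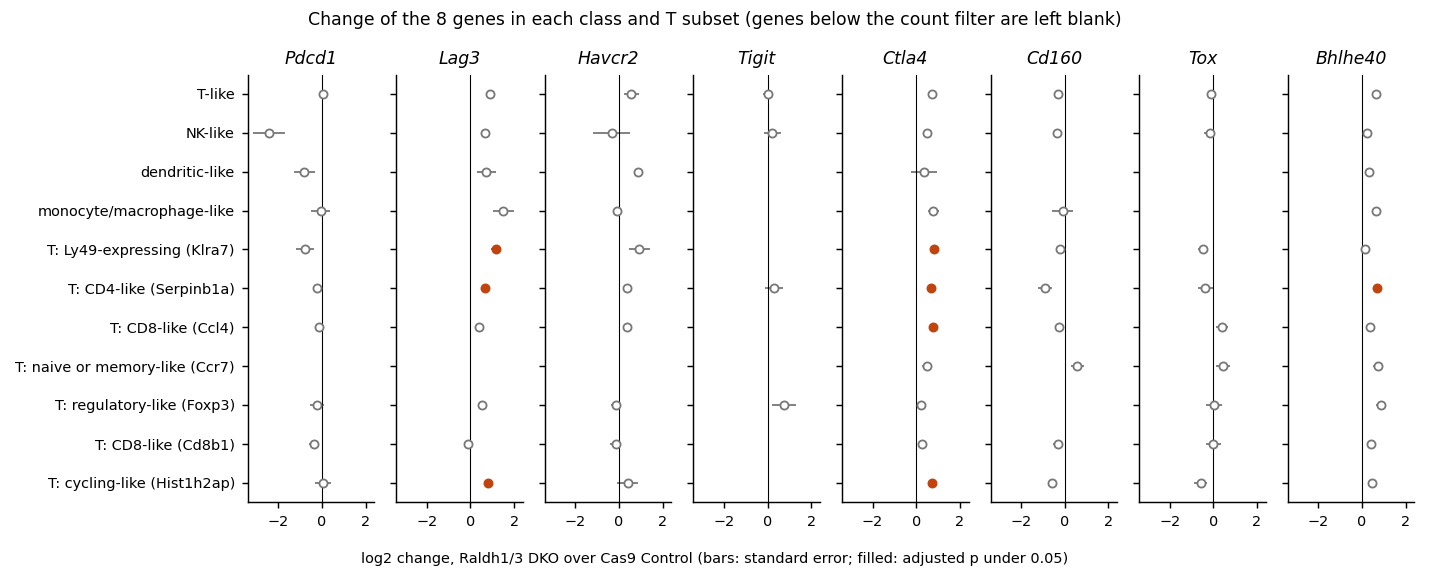
Log2 change (DKO over control) of each gene with its standard error in the 4 classes and 7 T subsets, with filled red points for an adjusted p under 0.05. The 8 filled points are Ctla4 in 4 subsets, Lag3 in 3 and Bhlhe40 in 1, all to the right of 0.

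In NK-like cells the same 3 genes were higher in DKO libraries, without a call. Ctla4 had 196 and 243 CPM in DKO and 150 and 147 CPM in control (log2 0.48 ± 0.14, edgeR adjusted p = 0.274). Lag3 had 59.97 and 91.8 CPM in DKO and 46.9 and 43.3 CPM in control (log2 0.67 ± 0.19, edgeR adjusted p = 0.234). Bhlhe40 had 613 and 637 CPM in DKO and 544 and 478 CPM in control (log2 0.21 ± 0.16). Both DKO libraries were above both controls for each. Pdcd1 went the other way, with 11 and 2 UMIs in DKO and 14 and 44 in control, or 4.78 and 0.838 CPM in DKO and 7.81 and 19.9 CPM in control (log2 -2.42 ± 0.72, edgeR adjusted p = 0.367). The NK-like class included a cluster led by Gzmg and Gzmf, with a UMI of Cd3e in 15.1% of cells. It held 31 and 15 cells in DKO and 15 and 58 in control, and its part in the differences was not tested. Of the 8 genes 0 was called by edgeR and 0 by DESeq2, 3 had an unadjusted p under 0.05, and 0.0653% of all 9195 genes were called. By edgeR, Lag3 was called without DKO 1 (adjusted p = 0.0124) and without control 1 (0.0383), Pdcd1 without DKO 1 (6.36e-06) and without control 1 (3.1e-07), and Havcr2 (log2 -0.97) without control 1 (0.0311). The T cell markers of the list summed to 1312 and 1373 CPM in DKO and 1301 and 1268 CPM in control in NK-like cells, and their part in the differences was not tested.

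In dendritic-like cells Havcr2 was the gene that differed most. It had 96.9 and 100.1 CPM in DKO and 51.7 and 52.0 CPM in control, from 240 and 355 UMIs against 170 and 114. The groups were far apart relative to the spread within each (log2 0.86 ± 0.15), and the edgeR adjusted p was 0.0963, above the threshold. With 1 library left out the log2 change was 0.82 to 0.89. DESeq2 gave adjusted p = 0.181. By edgeR the adjusted p was 0.248 with no doublet removal and 0.452 (log2 0.72) at Leiden resolution 2.0. It was 0.611 (log2 0.74) with the 8 genes among the variable genes, 0.0102 with the replicate block and 0.000261 with no filter on low counts. Thinned to 2000 UMIs, 16.2% and 16.0% of DKO cells had a Havcr2 UMI, against 8.85% and 7.49% of control cells. In monocyte/macrophage-like cells, whose libraries carried Havcr2 at similar levels, the values were 71.0 and 65.9 CPM in DKO and 65.4 and 74.8 CPM in control (log2 -0.072 ± 0.14).

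Among the other genes in dendritic-like cells, Bhlhe40 had 432 and 509 CPM in DKO and 371 and 345 CPM in control (log2 0.32 ± 0.15, edgeR adjusted p = 0.597). Pdcd1, with 53 UMIs in all, averaged 3.63 CPM in DKO and 5.93 CPM in control without overlap (log2 -0.80, edgeR adjusted p = 0.681). Lag3, with 75 UMIs in all, averaged 7.78 CPM in DKO and 4.64 CPM in control with overlap (log2 0.73, edgeR adjusted p = 0.685). Ctla4 had 8.07 and 32.7 CPM in DKO and 17.3 and 13.7 CPM in control. The summed T cell markers ordered the libraries alike, at 13.3 and 65.1 CPM in DKO and 39.9 and 26.9 CPM in control. Per 1000 T cell marker UMIs there were 491 Ctla4 UMIs in dendritic-like cells and 86.3 in T-like cells, and the source of these transcripts was not tested. The sign of the Ctla4 change depended on the library, at log2 0.92 without DKO 1 and -0.97 without DKO 2. Of 5 genes tested 0 was called, 2 had an unadjusted p under 0.05 and DESeq2 called 0, against 0.0104% of all 9602 genes.

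In monocyte/macrophage-like cells Bhlhe40 had 184 and 236 CPM in DKO and 144 and 122 CPM in control, both DKO libraries being higher (log2 0.62 ± 0.15, edgeR adjusted p = 0.393). DESeq2 called it (adjusted p = 0.0223), and it was the 1 gene of the 8 that DESeq2 called there. This class is a mixture too, and its makeup differed between libraries. A cluster led by Apol7c held 374 of 3113 and 480 of 2190 cells in DKO, and 234 of 4551 and 93 of 4932 in control. How much the makeup contributed to the Bhlhe40 difference was not tested. Lag3 and Ctla4 were scarce, at 3.29 and 6.13 CPM in DKO and 2.30 and 0.926 CPM in control for Lag3 (log2 1.51 ± 0.48, edgeR adjusted p = 0.487, 0.0476 without control 1) and 3.59 and 5.11 CPM in DKO and 2.77 and 2.14 CPM in control for Ctla4 (log2 0.79 ± 0.25, edgeR adjusted p = 0.475). All 8 listed T cell markers were present in these cells, summing to 25.2 and 23.9 CPM in DKO and 19.5 and 19.1 CPM in control. Per 1000 T cell marker UMIs there were 132 Lag3 UMIs and 150 Ctla4 UMIs in monocyte/macrophage-like cells and 43.7 and 86.3 in T-like cells, while Pdcd1 had 15.8 and 18.01 and Cd160 16.0 and 16.8. By edgeR 0 of 6 genes tested was called, 3 with an unadjusted p under 0.05, against 0.00770% of all 12993 genes.

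Non-overlap of the libraries was common in these classes: 6 of 8 genes in NK-like cells against 41.0% of all genes, 3 of 5 in dendritic-like cells against 41.0%, and 3 of 6 in monocyte/macrophage-like cells against 39.7%. Whether a change differed between T-like cells and another class was tested as a class-by-group term with the library as block. None of the 8 genes passed it by edgeR. Called genes made up 0.0468% of 10693 genes against NK-like, 0.0708% of 11306 against dendritic-like and 0.591% of 13357 against monocyte/macrophage-like cells. The difference of the log2 changes, T-like minus NK-like, was 0.22 ± 0.12 for Ctla4, 0.19 ± 0.20 for Lag3 and 0.37 ± 0.15 for Bhlhe40.

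Co-expression in single cells was read after each T-like cell was thinned to 2000 UMIs, which left out 112 and 55 T-like cells in DKO and 107 and 66 in control. Before thinning, T-like cells had a median of 5138 and 6235 UMIs in DKO and 4829 and 4801 in control. At least 2 of the 6 receptors were detected in 38.8% and 29.2% of T-like cells in DKO and in 23.8% and 23.4% in control. DKO averaged 34.0% ± 6.80 and control 23.6% ± 0.229 (SD, n = 2 each), a difference of 10.4 percentage points (exact two-sided permutation test, p = 0.33, the smallest that 2 libraries against 2 allow). Without thinning the shares were 61.1% and 51.3% in DKO and 42.3% and 46.0% in control. In monocyte/macrophage-like cells, with a median of 11586 and 12971 UMIs in DKO and 9731 and 8978 in control, the share at 2000 UMIs was 0.231% and 0.140% in DKO and 0.0908% and 0.166% in control. A share with at least 2 receptors also rises when single receptors are detected more often. Ctla4 was detected in 48.9% and 48.2% of thinned T-like cells in DKO and in 35.0% and 34.3% in control. Lag3 was seen in 32.3% and 23.7% in DKO and in 16.9% and 16.6% in control. Cd160 was lower in DKO (12.5% and 11.4%, against 15.2% and 14.5%), and Pdcd1, Havcr2 and Tigit overlapped. Whether the group difference exceeded what the separate receptor frequencies give was not tested.

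The libraries of the groups did not overlap at 0 and at 2 or more receptors, and overlapped at exactly 1, which was detected in 32.9% and 37.5% of T-like cells in DKO and in 34.0% and 36.6% in control. No receptor was detected in 28.2% (95% Clopper-Pearson interval 26.2 to 30.4) and 33.3% (30.8 to 36.0) of T-like cells in DKO, and in 42.2% (39.7 to 44.8) and 40.0% (37.1 to 43.0) in control. Exactly 3 receptors were detected in 11.5% (10.0 to 13.0) and 7.59% (6.21 to 9.16) in DKO, and in 5.82% (4.67 to 7.15) and 6.28% (4.90 to 7.91) in control. There were 10 and 1 cells with 5 receptors in DKO and 0 in both control libraries (0 of 1444 and 0 of 1067 cells, with upper bounds of 0.255% and 0.345%), and no cell had all 6. Intervals cover counting error alone.

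**Figure D4:**
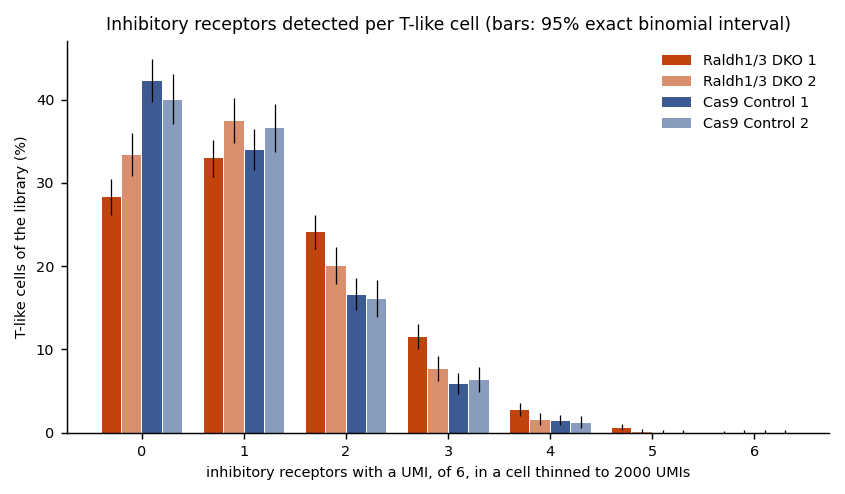
Share of T-like cells (%) by the number of the 6 inhibitory receptors with a UMI after thinning to 2000 UMIs, 1 bar per library (DKO left, control right) with 95% exact binomial intervals. The DKO bars are lower at 0 receptors and higher at 2 and 3.

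With 1 mix of T subsets for all libraries the share with at least 2 receptors was 32.5% and 30.4% in DKO and 27.8% and 25.6% in control, a difference of 4.73 percentage points. Without DKO 1 the unweighted difference was 5.604 points, and without DKO 2 it was 15.2 points. Within subsets it was 66.8% and 68.3% in DKO and 62.1% and 57.0% in control for the CD8-like subset led by Ccl4, and 40.8% and 37.9% in DKO and 32.8% and 30.7% in control for CD4-like cells. Regulatory-like cells had 41.0% and 34.0% in DKO and 30.8% and 26.7% in control. The groups did not overlap in these 3 subsets, each at an exact permutation p of 0.33, and overlapped in the other 4. Ly49-expressing cells had 8.02% and 7.56% in DKO and 7.94% and 6.67% in control, and the CD8-like subset led by Cd8b1 had 23.3% and 41.8% in DKO and 30.7% and 33.7% in control.

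Pairs of genes were compared by the odds ratio of finding both in 1 thinned T-like cell, in each library on its own and with no p. Of 28 pairs, 23 were expected by chance in at least 5 cells of each library, and 15 of these had a log2 odds ratio above 0 in all 4 libraries. The strongest pair was Lag3 with Havcr2, at 1.67 to 2.43 over the libraries, found together in 337 cells where 168 were expected from their separate shares. Pdcd1 with Lag3 followed (1.19 to 1.54, 321 cells against 194 expected), then Pdcd1 with Havcr2 (1.07 to 1.64, 182 against 101). Lag3 with Ctla4 was at 0.88 to 1.34 and Ctla4 with Bhlhe40 at 0.72 to 1.02. Ctla4 with Cd160 was the 1 pair below 0 in all 4 libraries (-1.07 to -0.67, 229 cells against 310 expected). For both Pdcd1 pairs just named the DKO libraries were lower, at 1.19 and 1.26 in DKO and 1.49 and 1.54 in control with Lag3, and at 1.07 and 1.41 in DKO and 1.64 and 1.47 in control with Havcr2. Tox with Pdcd1, Ctla4 or Havcr2 was also lower in both DKO libraries. Bhlhe40 with Pdcd1 went the other way, at 1.01 and 1.27 in DKO and 0.92 and 0.79 in control. So did Bhlhe40 with Lag3 (0.76 and 0.97 in DKO, 0.59 and 0.63 in control) and with Havcr2 (0.58 and 1.02 in DKO, 0.23 and 0.36 in control). The groups overlapped for the rest of the 23 pairs. Without a group difference, 2 libraries against 2 separate in this way with a probability of 0.33 for any pair. These odds ratios pooled all subsets, whose shares differed between libraries, and the differences between groups were not tested.

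Within single subsets fewer pairs stood above 0 in all libraries. In the CD8-like subset led by Ccl4, 15 pairs were common enough, and 2 of them were above 0 in all 4 libraries: Lag3 with Havcr2 (0.38 to 1.04) and Havcr2 with Bhlhe40 (0.068 to 1.31). Pdcd1 with Lag3 there ranged from -0.81 to 0.33, at 161 cells against 158 expected. Within CD4-like cells 4 of 12 pairs were above 0 in all libraries, led again by Lag3 with Havcr2 (0.73 to 1.80) and followed by Lag3 with Ctla4 (0.34 to 0.84). In regulatory-like cells Lag3 with Ctla4 was below 0 in all 4 (-2.22 to -1.28, 99 cells against 119 expected). In the CD8-like subset led by Cd8b1, Pdcd1 with Ctla4 was above 0 in all 4 (0.58 to 1.51).

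**Figure D5:**
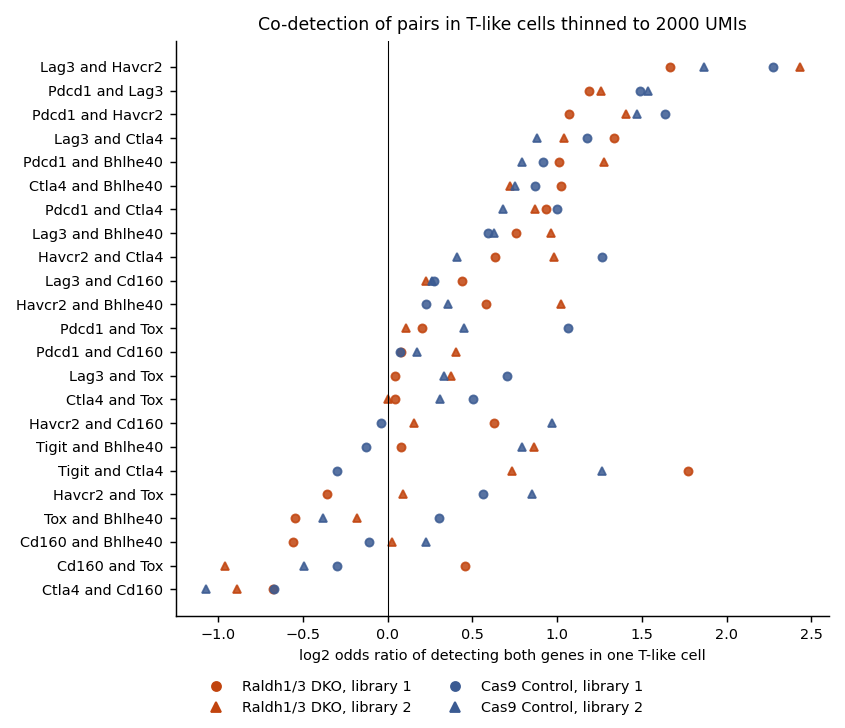
Log2 odds ratio of detecting both genes of a pair in 1 T-like cell thinned to 2000 UMIs, for the 23 pairs expected in at least 5 cells of each library, 1 point per library. Lag3 with Havcr2 lies furthest right and Ctla4 with Cd160 lies left of 0 in all 4 libraries.

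Other genes of the pathway were read from lists, by counts and medians with no set test. Of 14 other inhibitory receptor genes, 12 were tested in T-like cells, 0 was called, 6 were positive and the median log2 change was -0.022, beside 0.0048 over all genes. Cd72 had 14.8 and 16.7 CPM in DKO and 22.8 and 22.8 CPM in control (log2 -0.61 ± 0.13, edgeR adjusted p = 0.165), Klrg1 was at log2 -0.61 ± 0.17 and Klrc1, which encodes NKG2A, at 0.35 ± 0.12. Of 18 transcription factors of exhaustion and activation, 0 was called and 13 were positive, with a median of 0.30. Nr4a1, an orphan nuclear receptor induced by T cell receptor signalling, had 229 and 232 CPM in DKO and 128 and 119 CPM in control (log2 0.83 ± 0.10, edgeR adjusted p = 0.0591). Irf4, a factor whose level follows signal strength, had 87.7 and 81.5 CPM in DKO and 45.2 and 40.7 CPM in control (log2 0.91 ± 0.11, edgeR adjusted p = 0.0591), and Nr4a3 was at log2 0.57 ± 0.11 (edgeR adjusted p = 0.131).

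Of the 12 activation and effector genes, 0 was called and 8 were positive, with a median of 0.21. Il2ra, the high-affinity chain of the IL-2 receptor, had 275 and 429 CPM in DKO and 192 and 208 CPM in control (log2 0.74 ± 0.18, edgeR adjusted p = 0.216). Il2 itself had 5.999 and 2.78 CPM in DKO and 23.8 and 12.1 CPM in control (log2 -2.09 ± 0.46, edgeR adjusted p = 0.221), and the costimulatory receptor gene Icos was at log2 0.49 ± 0.13. Of 13 ligand genes 9 were tested in T-like cells, with 0 called, 3 positive and a median of -0.14. The PD-L1 gene Cd274 had 62.6 and 72.4 CPM in DKO and 54.2 and 48.1 CPM in control (log2 0.33 ± 0.11, edgeR adjusted p = 0.268), and Lgals9 and Cd86 were at log2 -0.16 ± 0.10 and -0.26 ± 0.19. In monocyte/macrophage-like cells 11 ligand genes were tested, with 0 called, 7 positive and a median of 0.090, beside 0.0067 over all genes.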

How the data were processed

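The deposited values were raw UMI counts per gene and barcode, 1 matrix per library, made by the authors with matrix software 3.1.0 per the file headers. The submitters' processing notes name the builds mm10 and GRCh38, Cell Ranger, R 3.6.0 and Seurat 3.1.0. Gene IDs matched the mm10 annotation for 30934 of 31053 features. Barcodes with at least 500 UMIs and 200 genes and up to 10% mitochondrial UMIs were kept. Barcodes with the highest doublet scores were taken as doublets and removed (415 and 236 of all barcodes in DKO, 678 and 601 in control). Their number was set from a rate of 0.8% per 1000 barcodes, while the scoring tool's own threshold called 105 and 35 in DKO and 108 and 107 in control. Cells were clustered with scanpy 1.11.5, leaving the 8 genes out of the variable genes. Classes were named "-like" from listed markers, by naming rules set after the clusters were seen. For each class the counts of a library's cells were added up and tested with edgeR 4.0.16 (quasi-likelihood test, Benjamini-Hochberg adjustment over all genes, threshold 0.05) in R 4.3.3, which was tested on simulated data. DESeq2 1.42.0, other filters, other clusterings, a replicate block and leaving out each library were the alternatives. Receptor numbers and pairs per cell were read from cells thinned to 2000 UMIs, and shares of cells with a marker gene were not thinned. The 8 genes were all named. The genes and lists were chosen with earlier results of these data known. Genes named from a list were the 3 with the smallest p in T-like cells. 0 columns of per-sample values were left unused. For likeness the 3 genes with the highest r were named for each gene, except that 1 of those for Bhlhe40 is not reported here.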

Additional observations from a re-analysis of the deposited data

How the results depend on the processing

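The number of the 8 genes called was 0 in T-like cells, and it was 2 with DESeq2, 3 with no filter on low counts, 1 with the stricter cell filter and 0 to 4 with 1 library left out. In NK-like cells it was 0, with 2 under no filter and 0 to 3 with 1 library left out. In dendritic-like cells it was 0, with 1 under no filter and 0 to 2 with 1 library left out. In monocyte/macrophage-like cells it was 0, with 1 by DESeq2 and 0 to 1 with 1 library left out. The 8 calls in T subsets became 4 with DESeq2 and 4 to 11 with 1 library left out. The replicate numbers were not shown to pair the libraries (correlations of same-numbered deviations were -0.378 in T-like, -0.380 in NK-like, -0.316 in dendritic-like and -0.397 in monocyte/macrophage-like cells), and with the replicate number as a block dendritic-like cells had 1 call and T subsets 3, and T-like, NK-like and monocyte/macrophage-like cells 0. With crossed numbers as the block, chosen after seeing the data, there were 4 calls in T-like, 3 in NK-like, 1 in dendritic-like cells and 9 in T subsets.

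These log2 changes turned sign under an alternative, and none was called in the fit with all libraries or where its sign had turned. Pdcd1 in T-like cells was at -0.18 with 1 mix of subsets and at -0.29 to 0.30 with 1 library left out, and in monocyte/macrophage-like cells at 0.035 at Leiden resolution 2.0, 0.20 with no doublet removal, 0.076 with the stricter filter and -0.56 to 0.28 with 1 library left out. Tigit was at -0.035 in T-like cells with no doublet removal and at -0.073 in NK-like cells at resolution 2.0. Cd160 in monocyte/macrophage-like cells was at 0.16 with the stricter filter and 0.013 with the low-UMI cluster added after seeing the data. With 1 library left out, Havcr2 ranged from -0.97 to 1.01 in NK-like and -0.20 to 0.073 in monocyte/macrophage-like cells, Tigit from -0.16 to 0.21 in T-like, Ctla4 from -0.97 to 0.92 in dendritic-like, Cd160 from -0.79 to 0.32 in monocyte/macrophage-like, and Tox from -0.39 to 0.11 in T-like and -0.43 to 0.12 in NK-like cells. The causes were not tested. Each group had 2 pools, and a lone library was assumed to vary like the other group's.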

Other observations

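Among T subsets too small for a test in each library, the type 2-like cells (led by Il13, Hdc and Il4) had the highest mean Lag3, 991 CPM over the 4 libraries, from 45 and 67 cells in DKO and 29 and 18 in control. Their lowest library, at 532 CPM, was above the highest library of any of the 7 tested subsets. Lag3 had 0 UMIs in the gamma-delta-like subset (9 and 26 cells in DKO, 16 and 13 in control). The T cell receptor genes Trdc (delta) and Trac (alpha) had a UMI in 32.8% and 48.4% of its cells. Trdc was also seen in 24.3% of the 1189 Ly49-expressing cells, so the gamma-delta-like subset does not hold all Trdc-positive cells.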
